A study of Mus musculus with 3 samples.

Results

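The distal X chromosome of the mouse, from position 145,000,000 to the chromosome end in build mm9, was described in genome-wide profiles of the DNA recovered with Xist RNA. Its members were the rows of the X whose midpoint lay there or beyond and which the authors had not flagged. They numbered 713 of the 3987 X windows and of 94429 windows with a value in all. Each value is the deposited enrichment ratio of a 100 kb window. The windows advanced in steps of 25 kb, so neighbouring rows share DNA and are not replicates. Positions printed below are those of the deposited 25 kb rows, so each value comes from a wider span than its printed positions.

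The cells were ESCs, embryonic stem cells, of a female mouse, with 129SvJae given as the strain. The file naming carries an F1 that the labels do not explain, so whether the line is a hybrid is not known here. They were kept in 2i and LIF and then cultured in epiblast-like cell (EpiLC) medium. One Xist pulldown was made after 2 days in that medium and 1 after 4 days. No treatment other than the days in the medium separated them, and the labels name 1 input DNA library, from day 2. Xist was pulled down with antisense probes from lysate of crosslinked cells (RNA antisense purification, RAP), and the attached DNA was sequenced. The labels do not state whether 1 or both X chromosomes could make Xist in these cells. With 1 library per day, no difference below has a replicate check or a p-value, and the read depth is unknown.

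Xist is transcribed from the X inactivation centre and spreads in cis over the chromosome that makes it, where it recruits proteins that silence genes and modify chromatin. The distal end of the mouse X carries genes of several kinds. Among them are Huwe1, which encodes a ubiquitin ligase, Smc1a, a cohesin subunit, and Kdm5c, a histone demethylase gene that escapes silencing. Towards the end follow Pdha1, which encodes a subunit of pyruvate dehydrogenase, Piga, needed for GPI anchors, and Mid1, which straddles the border of the pseudoautosomal region in the house mouse. That region pairs with the Y chromosome in male meiosis.

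No genome or annotation of mm9 was used here, so no window is tied to a gene and no sequence is printed. The order of genes can be read from RefSeq's table of GRCm38.p6, a later build, in which the genes named below were found. In it, Alas2, Phf8, Huwe1, Smc1a, Iqsec2 and Kdm5c come first. Phex, Sms, Cnksr2, Rps6ka3, Eif1ax, Sh3kbp1, Pdha1, Nhs, Reps2 and Rbbp7 follow, then Ap1s2, Piga, Fancb, Glra2, Gpm6b and Tmsb4x. The last are Frmpd4, Msl3, Arhgap6, Hccs and Mid1, after which only Asmt, a gene of melatonin synthesis, is listed as protein-coding.

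The first question was how much DNA of the distal X came down with Xist on each day. The stretch was strongly enriched on both days. On day 2 its median deposited ratio was 11.23 (quartiles 5.59 and 16.49), against an autosomal median of 0.38, which is 29.6 times as high. On day 4 the median was 17.67 (quartiles 12.85 and 22.81), or 60.9 times the autosomal median of 0.29. The lowest window was at 1.66 on day 2 and 3.37 on day 4, still 4.37 and 11.6 times the autosomal median. The rest of the X had medians of 10.67 and 16.27, close to those of the distal part.

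**Figure D1:**
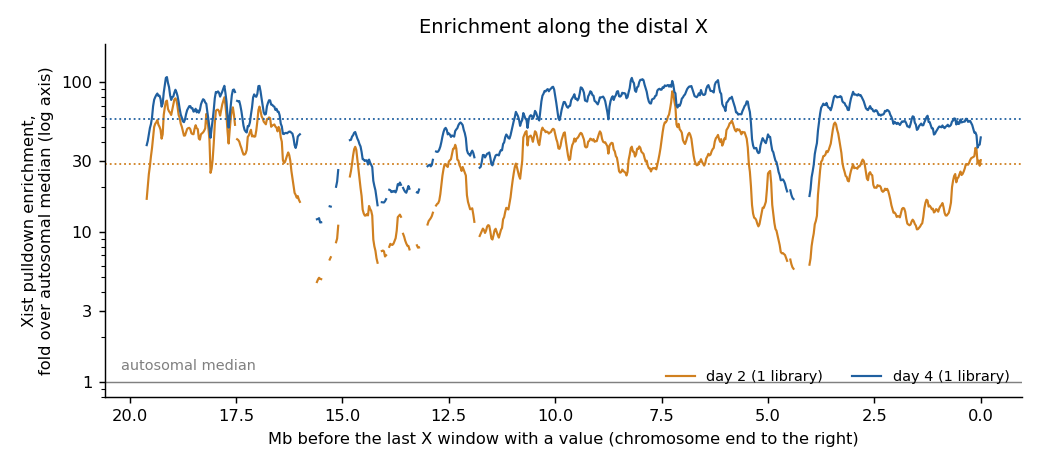
Enrichment of the distal X on day 2 and day 4 as fold over the autosomal median (log axis), against distance in Mb from the last X window with a value. Solid lines are windows of 1 library per day, broken at flagged rows, and dotted lines the medians of all X windows; day 4 lies above day 2 throughout, at a median of 60.9 against 29.6.

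The distal X fell into stretches of unlike level. It was divided into 4, at 150 Mb, at 155,000,000 and at 160 Mb. In the first stretch, where values begin at 146787501 to 146812500, recovery was high on both days, with medians of 18.93 and 20.33 over 127 windows. The second was low, at 4.99 on day 2 and 9.17 on day 4, with a value in 71.5% of its rows. In the third the medians were 14.375 and 23.1 (200 windows), and in the last, from 160 Mb to the end, 8.1 and 16.04 (243 windows). The order of the 4 thus differed between the days, since the first stretch was highest on day 2 and the third on day 4.

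The highest windows were taken in turn, with later picks at least 200 kb from earlier ones, and differed in part between the days. On day 2 they were at 159137501 to 159162500 with 33.1, at 148612501 to 148637500 with 30.19 and at 147462501 to 147487500 with 29.68. These 3 windows had 29.6, 27.47 and 25.85 on day 4. On day 4 the highest were at 147262501 to 147287500 with 31.41, at 158187501 to 158212500 with 31.02 and at 158437501 to 158462500 with 30.4, where day 2 had 28.67, 14.14 and 12.88. None of the 3 picks of day 2 was a pick of day 4, but the spacing rule limits what this shows. The highest pick of day 4 lay 200 kb from the third pick of day 2. The highest pick of day 2 was also above the 90th percentile of all X windows on day 4, 26.7.

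Few windows of the distal X ranked among the highest of the chromosome. Above the 90th percentile of all X windows, which was 23.3 on day 2 and 26.7 on day 4, lay 33 distal windows (4.63%) on day 2 and 43 (6.03%) on day 4. The first stretch held 27 of the 33 and the third stretch 6. Of the 43, the first stretch held 8, the third 29 and the last 6. Windows past the limit on both days numbered 12, which is 36.4% of the day 2 list and 27.9% of the day 4 list. In the rest of the X, 202 windows were on both lists, 55.2% of that of day 2 and 56.9% of that of day 4.

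Low windows were few too. Below the 10th percentile of the X, 2.68 on day 2 and 4.23 on day 4, lay 22 distal windows on day 2 and 7 on day 4. The lowest of day 2 was at 162162501 to 162187500, with 1.66 on day 2 and 3.71 on day 4. The lowest of day 4 was at 150862501 to 150887500, with 1.86 and 3.37. Both lie next to, or a row from, flagged rows. Windows within 2 rows of a flagged row had medians of 3.145 and 5.69 (62 windows), against 11.84 and 18.49 for the other 651. The part of the flagging in these low levels was not tested.

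The second question was how day 4 differed from day 2 once each library was set relative to its own autosomal median. All 713 windows were higher on day 4 by this measure, as were 97.5% of the other X windows and 56.1% of autosomal windows. The log2 ratio of day 4 over day 2 had a median of 1.08, which is a 2.11-fold increase, and quartiles of 0.64 and 1.52. The deposited ratio itself was higher on day 4 in 639 windows (89.6%) and had a median fold of 1.61. In the rest of the X it was higher in 81.2% of windows, with a median fold of 1.37, and on autosomes in 26.3%. Its median without scaling was 0.69 on the log2 scale, so part of the 1.08 is the fall of the autosomal median.

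More than 2-fold higher on day 4 were 400 distal windows, or 56.1%. The same held for 3.07% of autosomal windows, 38.1% of the other X windows and 41.3% of all X windows. Without scaling the distal share was 32.0%. Against the rest of the X, whose median log2 ratio was 0.85, the distal part was higher by 0.23. That difference was 0.05 when the medians of both days were divided in place of taking the median of ratios. The part before it and the other end of the chromosome had like values. From 125,000,000 up to the distal part the median log2 ratio was 1.01 and 50.5% of 641 windows exceeded 2-fold. In the first 30 Mb the values were 1.1 and 59.8% of 535 windows.

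The difference between the days was far from even within the stretch. In the first stretch the median fold was 1.34, and 2 of 127 windows were over 2-fold higher. In the second it was 2.18, with 65.0% of windows over 2-fold, and in the third 2.05, with 57%. In the last it was 2.87, with 191 of 243 windows. The median log2 ratio of the last stretch exceeded that of the first by 1.1. Between neighbouring windows that touch but share no DNA, the log2 ratio differed by a median of 0.15 in the distal X (668 pairs). The median was 0.13 in the rest of the X (2626 pairs) and 0.20 on autosomes. This local scatter describes 1 library per day and is no replicate error.

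As a share of the X alone, which needs no autosomal scaling, the first stretch lost and the others gained. The distal X held 17.1% of the summed enrichment of all X windows on day 2 and 19.1% on day 4. The first stretch went from 5.03% to 4.03%, and the last from 4.46% to 6.22%. The 80 windows between 164 and 166 Mb went from 0.964% to 1.95%. They were picked by their high log2 ratio, as described below, so this gain is partly built in.

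**Figure D2:**
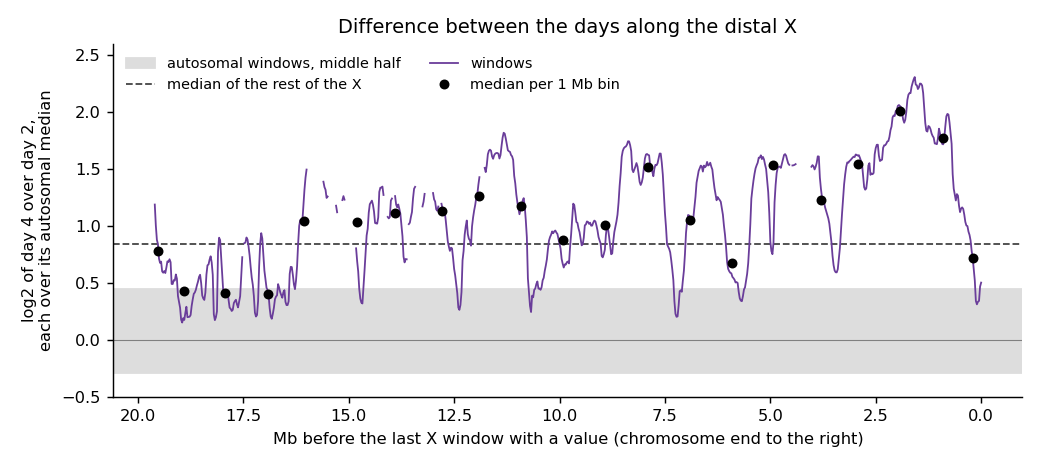
The log2 of day 4 over day 2, each relative to its autosomal median, against distance in Mb from the last X window with a value. The purple line is windows, black points are medians of 1 Mb bins, the grey band the autosomal quartiles and the dashed line the median of the rest of the X (0.85); bin medians run from 0.41 to 2.01 and drop to 0.72 in the last bin.

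In bins of 1 Mb the ratio rose towards the end in steps, not evenly, and began with a dip. The median log2 ratio was 0.78 in the first bin, which had 8 windows. It was 0.43, 0.41 and 0.41 in the 3 bins before 150 Mb and 1.05 in the bin after it. The deposited medians of the bins on either side of that position were 18.7 and 7.36 on day 2, and 19.5 and 12.95 on day 4. Recovery was thus lower in the bin just after 150 Mb on both days, with the larger drop on day 2. It did not stay lower on day 4, when the third stretch had a median of 23.1 and the first 20.33.

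From 151 to 158 Mb the bin medians lay between 0.88 and 1.26. The bin from 158 Mb had 1.52, with a day 2 median of 12.0 and a day 4 median of 25.9, the highest day 4 median of the 21 bins. It was followed by 1.05 and 0.68 in the bins from 159 and 160 Mb. The next 3 were at 1.53, 1.23 and 1.55, and the bin from 164 Mb reached 2.01. In all, 14 of the 21 bins had a median over 2-fold, and 15 lay above the median of all X windows, 0.88.

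Spearman's rank correlation of the log2 ratio with position was 0.59 over 177 windows free of overlap, as a description of these libraries. It was 0.53 over the part before 160 Mb, 0.48 without 164 to 166 Mb and 0.39 without the first stretch. Within the 4 stretches, in order, it was -0.16, 0.25, 0.16 and 0.39, so much of the overall value lies in the step from the first stretch to the others. Over the rest of the X the rank correlation was -0.14. Within the distal X, day 2 enrichment had a rank correlation of -0.33 with position and day 4 enrichment one of 0.04. This pattern rested on both the first and the last stretch. Without the first stretch the correlations with position were 0.05 on day 2 and 0.30 on day 4. Before 160 Mb, with the first stretch kept, they were -0.17 and 0.34.

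The windows with the least difference between the days were places of high day 2 recovery. This is partly built in, because the day 2 value is the divisor of the ratio. The 3 lowest by log2 ratio, picked at least 200 kb apart, were at 147437501 to 147462500 with 0.15, at 148212501 to 148237500 with 0.17 and at 149562501 to 149587500 with 0.19. Their deposited ratios were 29.17, 21.32 and 20.36 on day 2 and 24.74, 18.35 and 17.67 on day 4. In 74 distal windows the deposited ratio was lower on day 4, and 51 of these lay in the first stretch. The others stood in short runs within stretches that otherwise gained. One of 5 rows, from 159112501 to 159237500, held the day 2 summit of 33.1. Others were at 151662501 to 151737500, with 13.48 to 14.11 on day 2, at 153987501 to 154062500, with 13.68 to 14.55, and at 155687501 to 155787500, with 14.41 to 17.96. At 160662501 to 160762500 day 2 had 17.82 to 18.54, and day 4 17.64 to 18.22.

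The profile of the distal X was flatter on day 4. The upper quartile was 2.95 times the lower on day 2 and 1.78 times on day 4. In the rest of the X the figures were 3.46 and 2.69, and on autosomes 3 and 2.15. The rank correlation of levels between the days was 0.75 in the distal X and 0.91 in the rest of the X (821 windows). In the third stretch it was 0.34 (50 windows), the lowest of the 4, and in the second 0.93 (35 windows).

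The log2 ratio fell with the day 2 level, with a rank correlation of -0.76 in the distal X, -0.44 in the rest of the X and -0.64 on autosomes. The day 2 value is the divisor of the ratio, so part of each is built in. The distal X was therefore set beside the rest of the X within 4 bands of day 2 level, each with an equal number of all X windows. In the lowest band, under 5.37, the median log2 ratio was 1.54 in 157 distal windows and 1.02 in 839 others. Without a low stretch of the X between 110 Mb and 125,000,000 the others were at 1.26. In the second band, up to 10.87, the medians were 1.45 and 1.13. In the third, up to 17.64, they were 0.89 and 0.86, and in the highest 0.44 and 0.45. By day 2 level the distal X was therefore higher than the rest in the lower 2 bands and near it in the upper 2.

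In the last stretch the medians of the 4 bands were 1.62, 1.58, 1.01 and 0.54, each above that of the rest of the X. In the first stretch, where no window fell in the lowest band, the medians of the other bands were 0.89 in 6 windows, 0.66 in 39 and 0.39 in 82. Each was below that of the rest of the X. With bands by the mean level of both days in place of day 2, the distal medians were 1.35, 1.32, 0.91 and 0.59, against 0.93, 1.09, 0.81 and 0.53 in the rest of the X. Without the low stretch the lowest band of the rest was at 1.19. With bands by day 4 level the distal medians were 1.26, 1.19, 0.71 and 1.02, against 0.86, 0.98, 0.77 and 0.73, and without the low stretch the lowest band of the rest was at 1.09. Where the distal X lay above the rest thus depended on the day that set the bands. The first 30 Mb of the X had medians of 1.37, 1.21, 0.60 and 0.37 by day 2 level. By mean level they were 1.34, 1.15, 0.56 and 0.51, and by day 4 level 1.28, 0.97, 0.80 and 1.17. These lay below the distal medians in every band by day 2 or mean level. By day 4 level they lay above the distal medians in all but the second band.

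**Figure D3:**
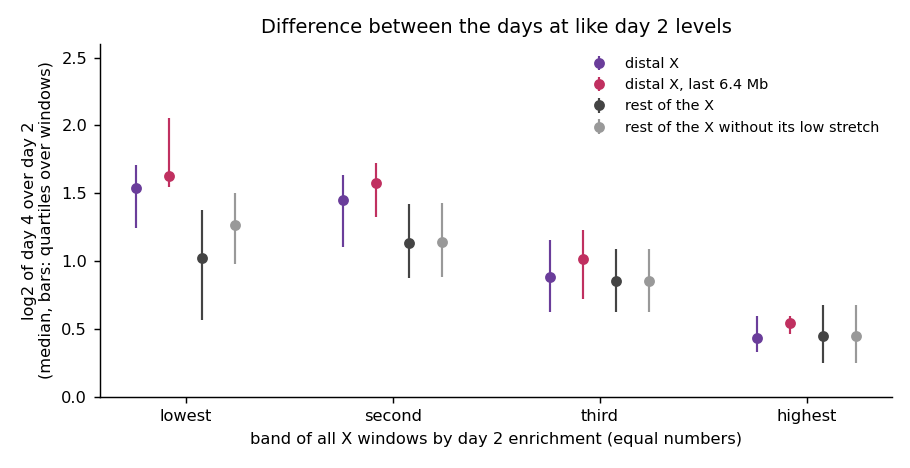
Median log2 of day 4 over day 2 (points) with quartiles over windows (bars) in 4 equal bands of all X windows by day 2 enrichment. The distal X and its last 6.4 Mb lie above the rest of the X in the lowest band, at 1.54 and 1.62 against 1.02, and near it in the highest, at 0.44 and 0.54 against 0.45.

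The stretch with the largest difference lay just short of the chromosome end. Above the 90th percentile of the log2 ratio over the X, 1.55, were 151 distal windows, 37.8% of all such X windows, while the distal X holds 17.9% of X windows. Of these 151, 104 were in the last stretch and 0 in the first. As a share of its own windows the distal X had 21.2% above this limit. The first 30 Mb had 21.7% and the part from 125,000,000 up to the distal part 6.55%.

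The longest unbroken run of such rows on the X was distal, from 163862501 to 165712500, 74 rows or 1850 kb, with a mean log2 ratio of 1.92. The next longest on the X, at 10362501 to 11037500, had 27 rows. Runs of 18 and 10 rows lay just before it, at 9512501 to 9962500 and at 9987501 to 10237500. A run ends at a flagged row as well as at a row under the limit. Flagged rows made up 43.5% of the rest of the X and 0% of 164 to 166 Mb. Run lengths are therefore not directly comparable. Of the 20 X windows with the highest log2 ratio, 18 lay in the distal run, and of the 100 highest, 48. The run was itself defined by high log2 ratios, so this overlap is partly built in. Neighbouring rows also share DNA, so these counts are not of separate places. The highest of all X windows was at 164812501 to 164837500, with 4.51 on day 2 and 17.06 on day 4, a log2 ratio of 2.31 and a fold of 4.96. The next picks at least 200 kb apart were at 165012501 to 165037500, with 4.36 and 14.97, and at 164437501 to 164462500, with 4.88 and 15.57.

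This run was not a peak of recovery on either day, with mean deposited ratios of 5.60 on day 2 and 15.9 on day 4. The values that follow are for 164 to 166 Mb, which holds most of the run and some rows beyond it. That stretch was picked as the 2 Mb from the start of the 1 Mb bin with the highest median log2 ratio. High ratios and a gap between the days are thus partly built in. Between 164 and 166 Mb day 2 values ran from 3.97 to 9.65 and day 4 values from 13 to 18.96. The day 2 median of 5.47 was below the X median of 10.87, and the day 4 median of 15.465 was just below the X median of 16.58. The day 4 quartiles lay 1.11-fold apart, against 1.46-fold on day 2. All 80 windows were over 2-fold higher on day 4, against 41.3% of all X windows. The median fold of the 80 was 3.64, or 2.78 without scaling. Among 107 bins of 1 Mb on the X with at least 20 windows, the bins from 164 and 165 Mb ranked 1 and 4. Those that ranked 2 and 3 start at 10 and 9 Mb, near the other end of the chromosome, with 1.86 each. Without 164 to 166 Mb, 320 of 633 distal windows (50.6%) were over 2-fold higher and the median log2 ratio was 1.0.

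Nearest to the end the difference shrank again. The day 2 ratio was 4.91 at 165587501 to 165612500, 9.29 at 165787501 to 165812500, 11.96 at 166187501 to 166212500 and 13.57 at 166287501 to 166312500. The day 4 ratio at these 4 windows was 14.84, 16.57, 15.03 and 12.86. The log2 ratio thus went from 1.99 to 1.22, 0.72 and 0.31 within 1 Mb. Day 2 values rose over this distance while day 4 values stayed level and then fell. In 4 rows from 166262501 to 166362500 the deposited ratio was lower on day 4, at 10.62 to 13.42, than on day 2, at 11.03 to 13.87.

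The last window with a value, at 166387501 to 166412500, had 11.5 on day 2 and 12.44 on day 4. The 12 rows beyond it, to the end of the X, were all flagged and have no value, so neither day can be described there. The windows nearest to the limit at 145,000,000 were at 144012501 to 144037500, with 6.18 and 10.01, and at 146787501 to 146812500, with 6.35 and 11.05. All rows from 144987501 to 146787500 were flagged. Of the 869 rows of the distal X, 156 (18.0%) had no value, against 43.5% of rows in the rest of the X.

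**Figure D4:**
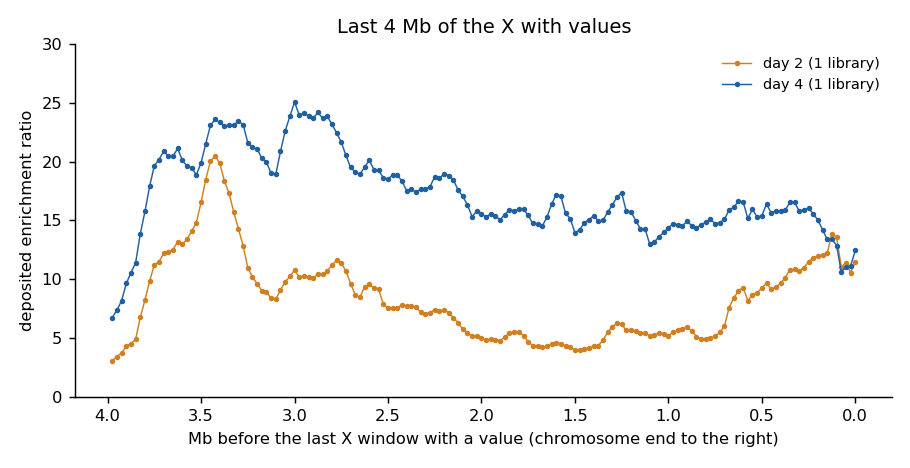
Deposited enrichment ratio of each window on day 2 and day 4 over the last 4 Mb of the X with values, against distance in Mb from the last such window. Day 2 is between 3.97 and 9.65 and day 4 between 13 and 18.96 from 2.4 to 0.4 Mb before the last window, and the lines meet at the end, at 11.5 and 12.44.

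The third comparison asked whether other chromosomes showed a like change towards their distal ends. It was added after values were seen, with the high ratios near the end of the X already known. The autosomal ends were not picked by their values. The last 2 Mb with values of the X had a median log2 ratio of 1.81, which exceeded that of the rest of the X by 0.95. On the 19 autosomes the same difference ran from -0.88 on chromosome 5 to 0.53 on chromosome 18, and was above 0 on 8 of them. Over the last 6 Mb the difference was 0.68 on the X and between -0.83 and 0.47 on autosomes. The last 20 Mb of the X hold all 713 distal windows, so the X values for that length repeat those given above. Over the last 20 Mb the difference was 0.23 on the X, and chromosomes 18 and 19 were above it with 0.44 and 0.25. The rank correlation of the log2 ratio with position in the last 20 Mb was 0.59 on the X and between -0.56 and 0.47 on autosomes. The autosomal values behind these differences are background, at a median ratio of 0.38 on day 2.

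**Figure D5:**
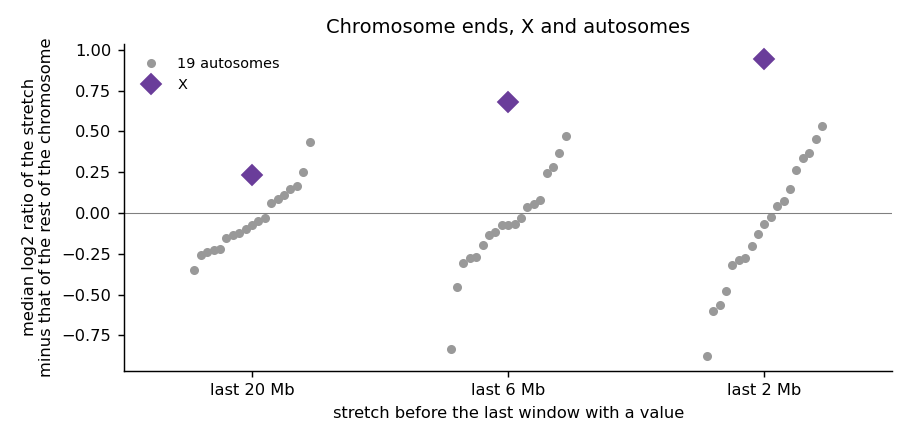
Median log2 ratio of the last 20, 6 and 2 Mb with values of each chromosome minus that of the rest of the chromosome, for the X (diamond) and 19 autosomes (dots, in rank order). The X stands at 0.23, 0.68 and 0.95, above every autosome for the last 6 and 2 Mb and below 2 of them for the last 20 Mb. The comparison was added after values of the X were seen.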

How the data were processed

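The authors deposited 1 enrichment ratio per 100 kb window and pulldown library, to 2 decimals. It is taken to be pulldown over input, from the file naming and the labels. The day 4 input and the scaling of libraries were not given in the sources used here. Per the submitters' processing notes, bedtools, Picard, SAMtools 1.2, Bowtie2 2.2.9 and Trim Galore 0.4.1 were used, with mm9. A deposited flag, 0 or 1, marks rows whose ratio is 0 on both days, and these were left out. Depth is unknown, so no counting interval can be given.

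Each ratio was divided by the median of its library's autosomal windows, with no pseudocount, and medians, quartiles and Spearman's rank correlation (1 row in 4, so that windows do not overlap) were computed with Python 3.11.15 and pandas 2.3.3. Rounding of the autosomal medians can shift every log2 ratio by up to 0.04. Positions count from 1.

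The 3 highest and lowest windows of each day and of the log2 ratio, at least 200 kb apart, segments, 1 Mb bins and runs past the 90th or 10th X percentile of a day are named. Runs of the ratio, bands by level, chromosome ends and 164 to 166 Mb were added after values were seen. Members and lists were chosen with earlier results of these data known. Checked on 50 simulated pairs of profiles over the 713 windows, the median log2 ratio was recovered with a largest error of 0.03. The simulated noise was drawn separately for each window, whereas real neighbours share DNA. The check therefore covers the calculation and not the precision of the real values. No test was run, as each day has 1 library.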

Additional observations from a re-analysis of the deposited data

How the results depend on the processing

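Of 71 alternative values for 7 results, 54 moved by less than the spread of 1 Mb bins (standard deviation of bin medians over the square root of their number; for the share, the exact binomial 95% interval of 177 windows, a yardstick only because neighbouring windows are not independent; for the rank correlation, the spread over 4 choices of windows), and 0 changed direction. The other 17 follow. Against the autosomal mean the levels were 24.0 on day 2 and 51.5 on day 4, and against autosomal windows within 20 Mb of the distal ends 23.4 and 49.1. The median log2 ratio was 0.69 with no scaling. Scaled to the X median it was 0.077, which sets the distal part against the X as a whole. It was 0.79 with a pseudocount of 0.5, which exceeds both autosomal medians. The share over 2-fold was 32.0%, 3.37% and 36.0% under these settings. The rank correlation with position was 0.56 with another choice of windows that do not overlap, 0.54 with an earlier start of the distal part and 0.64 without the last 1 Mb. The contrast of 1.1 between the ends of the stretch was 0.996 with the pseudocount and 0.98 with the earlier start, 2 Mb before the main one. As ratios of medians, added after seeing the data, this contrast was 0.88 and the difference from the rest of the X 0.045. Scaling cannot alter the rank correlation or these differences, so those settings tested nothing there. No paired analysis was possible because neither pulldown was replicated, and none could be left out. Differences between low windows cannot be weighed without read counts.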
